A study of Homo sapiens with 8 samples.

Results

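The promoters described here carried H3K4me3 in all HL-60 libraries and had an H3K27ac peak after all-trans retinoic acid (ATRA) treatment that the control cells lacked. They were chosen by their measured peaks. A protein-coding gene was included when the window of 1 kb on each side of one of its transcription start sites (TSS) overlapped an H3K4me3 peak in all 4 H3K4me3 libraries, an H3K27ac peak in both ATRA libraries and no H3K27ac peak in either control library. Of 19794 protein-coding genes, 10840 had a TSS with H3K4me3 in all 4 libraries, and 455 of them met the whole rule through 1225 TSS. Called the gaining promoters below, they make up 4.2% of the 10840, and since the rule fixed this pattern of H3K27ac, the H3K27ac values at them are a description with no test.

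H3K4me3 is a methyl mark on histone H3 that lies over the start of genes that are active or held ready for activity. H3K27ac is an acetyl mark on the same histone that lies over active promoters and enhancers, and it is placed by acetyltransferases that coactivators bring to DNA. The retinoic acid receptors bind DNA with the RXR proteins, exchange corepressors for such coactivators when ATRA is bound, and drive the maturation of promyelocytes towards granulocytes.

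HL-60 is an established cell line from a human promyelocytic leukemia that matures along the granulocytic path when exposed to ATRA. The ATRA group received 1 µM ATRA and the control group the same amount of its solvent, ethanol, both for 4 days. Each mark was measured by ChIP-seq in 2 replicates of each group, which gave 8 libraries, and nothing in the labels says whether the replicates were separate cultures. Only the positions of peaks and, as a filter, their scores from the peak caller were analyzed. The depth of sequencing is therefore unknown, and all values of the marks below are lengths and counts of peaks. In such bulk samples, more cells with a mark and more of the mark per cell cannot be told apart.

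The H3K27ac libraries differed in how much was called. The ATRA libraries had 28200 and 39332 H3K27ac peaks in replicates 1 and 2, and the control libraries had 15457 and 29616. The H3K4me3 libraries had between 13241 and 16487 peaks, the fewest in control replicate 2. Of 7 genes that mark myeloid cells, 6 had H3K4me3 and H3K27ac in every library, and none of 25 markers of T, B, erythroid, epithelial or fibroblast cells had H3K4me3 in all 4 libraries.

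Short stretches of a few gaining promoters show the sequence that interferon-induced genes are known to share, which was nearly as frequent among all promoters. The interferon-stimulated response element was searched as GAAA followed, after 2 bases of any kind, by a second GAAA, on both strands, from 250 bases before to 50 bases after the TSS, and 15 of the 455 gaining promoters (3.3%) held it, against 304 of all 10840 (2.8%). The 30 bases around the first match are given here for the 6 of these genes that are on one of the gene lists described below and for CD274 and SOCS1, a checkpoint ligand and an inhibitor of cytokine signaling that were picked after their values were seen. The other gaining promoters that held the element, those of C1orf159, CCDC102B, CREG1, FLT3LG, GLI4, PARP10 and TMX3, are not shown. The stretches are read 5′ to 3′ on the strand of the gene from build GRCh37 (hg19), and capitals mark the element on either strand.
ISG15: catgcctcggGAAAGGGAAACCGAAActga
IFIT5: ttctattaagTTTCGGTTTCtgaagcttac
LIPA: cgagcgctcaGAAACTGAAActtaagaaat
IRF7: actgtttaggTTTCGCTTTCccgggagcct
TRIM5: atagtttatcTTTCACTTTCctgccctgag
IKBKE: tcctatactgTTTCTGTTTCctgggacaat
CD274: gactgacatgTTTCACTTTCTGTTTCattt
SOCS1: cgccaccgcgGAAAGAGAAAccaaaagtgg
The ISG15 stretch lies at chr1:948754-948783 on the plus strand and holds 2 overlapping matches, whose first bases are 113 and 107 bases before the TSS. The IFIT5 stretch lies at chr10:91174270-91174299, and its match begins 45 bases before the TSS. The LIPA stretch lies at chr10:91174311-91174340 on the minus strand, because IFIT5 and LIPA start back to back within the same window. The stretches of IRF7 and TRIM5 lie on the minus strand at chr11:615684-615713 and chr11:5706312-5706341, and the IRF7 match begins 25 bases after the TSS. The remaining stretches are at chr1:206646134-206646163 for IKBKE, chr9:5450324-5450353 for CD274 and, on the minus strand, chr16:11350155-11350184 for SOCS1.

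ITGAM, which encodes the alpha chain of the integrin of mature granulocytes (CD11b), is shown as a promoter of another kind. The 250 bases before its TSS, at chr16:31271038-31271287 on the plus strand, overlap no annotated exon, and capitals mark the letters AGGAAG, an ETS core of the class bound by PU.1, on either strand.
ITGAM: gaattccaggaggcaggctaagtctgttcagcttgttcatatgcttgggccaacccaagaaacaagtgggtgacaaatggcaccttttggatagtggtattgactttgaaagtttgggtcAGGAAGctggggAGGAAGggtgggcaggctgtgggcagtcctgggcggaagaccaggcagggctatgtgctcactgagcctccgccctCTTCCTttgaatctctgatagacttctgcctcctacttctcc
The 3 matches begin 130, 118 and 42 bases before the TSS. Matches to these letters were found in 143 of the gaining promoters (31.4%) and in 3447 of all promoters (31.8%).

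To place the gain among the other patterns, the presence of an H3K27ac peak in each of the 4 H3K27ac libraries was tabulated for the 10840 promoters. H3K27ac was present in all 4 libraries at 6794 promoters (62.7%) and in none at 1100 (10.1%). The opposite pattern to the gain, a peak in both control libraries and in neither ATRA library, was found at 68 promoters, 0.627% of those tested. The gaining promoters thus outnumbered the losing ones, but this order depended on how many peaks each library held. With each H3K27ac library held to its 15457 longest peaks, the number in the smallest library, 261 promoters gained and 480 lost H3K27ac, and 149 of the 455 gaining promoters still met the rule. Unlike the 68, the 480 do not exclude genes that also gained at another TSS.

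**Figure D1:**
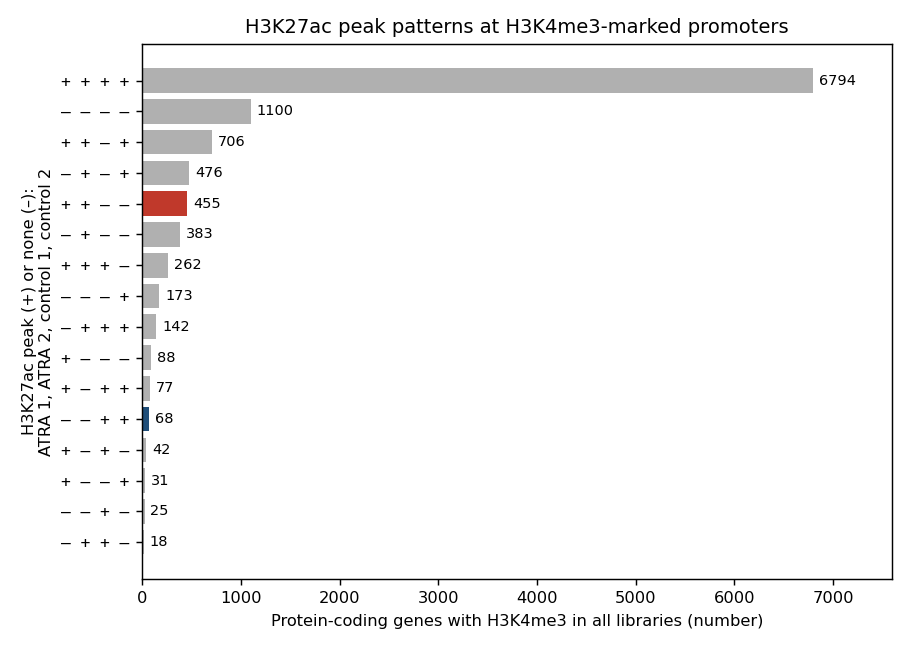
Number of protein-coding genes with H3K4me3 in all libraries (x axis) for each pattern of H3K27ac peaks (y axis, a plus for a peak and a dash for none, in the order ATRA 1, ATRA 2, control 1, control 2). The red bar is the 455 gaining promoters, the blue bar the 68 losing promoters, and the largest bar the 6794 promoters with H3K27ac in every library.

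Within the window of 2001 bp, the gained H3K27ac covered a median of 631 bp in ATRA replicate 1 and 895 bp in replicate 2, and 0 bp in both control libraries by the rule. The middle 50% of the promoters had between 375 and 996 bp in replicate 1 and between 462 and 1455 bp in replicate 2. At promoters with H3K27ac in every library, the ATRA libraries covered medians of 1705 and 1896 bp. H3K27ac reached over the whole window in both ATRA libraries at 15 gaining promoters and covered less than 200 bp in at least one of them at 46.

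The gained mark did not cover the TSS at every promoter. In ATRA replicate 1 the TSS itself was under a peak at 30.5% of the gaining promoters, and the position 500 bp downstream at 52.7%. In replicate 2 these shares were 50.1% and 54.9%. At promoters with H3K27ac in every library the TSS was under a peak at 77.4% in ATRA replicate 1 and 87.3% in replicate 2, and the position 500 bp downstream at 88.7% and 89.4%, so the share was higher downstream there too. Both ATRA libraries had the TSS under a peak at 104 of the 455 gaining promoters.

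**Figure D2:**
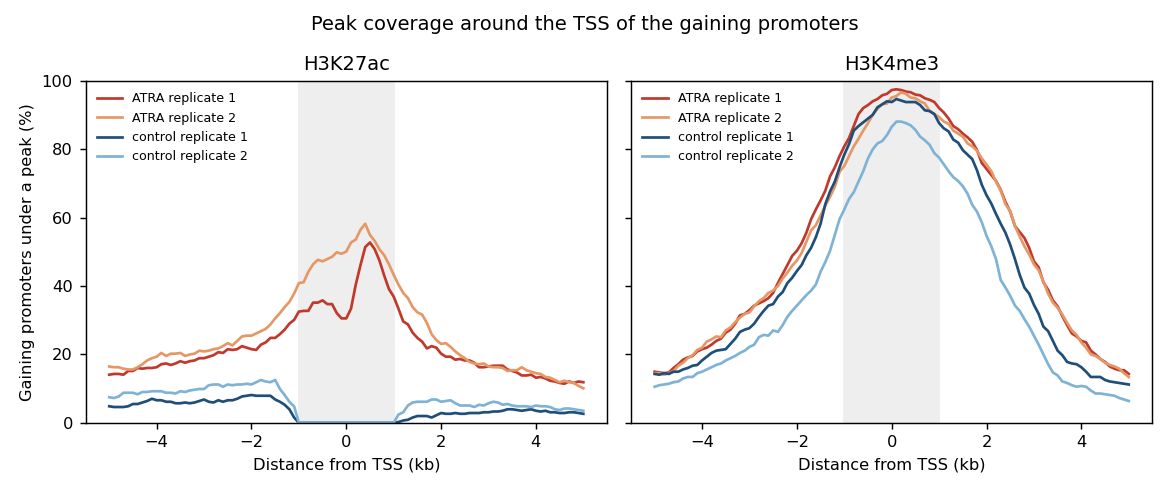
Share of the 455 gaining promoters under a peak (y axis, percent) by distance from the TSS (x axis, kb, downstream to the right) in each library, for H3K27ac and H3K4me3. Control H3K27ac is at 0 inside the shaded window because the rule requires it, while H3K4me3 covers the TSS at 86.6 to 97.4% of the promoters, least in control replicate 2.

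How far the control cells were from having the mark varied widely. The distance from the TSS to the nearest control H3K27ac peak had a median of 9306 bp, with quartiles of 1790 and 31337 bp. It was under 2 kb at 121 gaining promoters (26.6%) and above 50 kb at 77 (16.9%). At 322 promoters (70.8%) the ATRA peaks over the window touched no control H3K27ac peak, at 87 (19.1%) the peaks of both ATRA libraries reached a control peak outside the window, and at 46 (10.1%) the peak of only one did so. At the 87 promoters, the summed length of the ATRA peaks touching the window had medians of 3613 bp in replicate 1 and 4091 bp in replicate 2. At the 322 these medians were 790 and 1240 bp. A peak must extend past the window to reach a control peak there, so part of this difference follows from the grouping.

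The ends of this range held different genes. PRDM2, a histone methyltransferase gene, lay 1388914 bp from the nearest control H3K27ac peak and had ATRA peaks of 206 bp in replicate 1 and 625 bp in replicate 2. NSMCE3, a subunit of the SMC5/6 complex, followed at 995548 bp, with ATRA peaks of 274 and 749 bp. MED23, a Mediator subunit, and ENPP3, an ectonucleotidase, share a start region, and their TSS lay 726343 and 726124 bp from a control peak, with the same ATRA peaks of 491 and 246 bp. The other members of the 10 farthest were KBTBD8, RBM19, VPS41, HHAT, PRR5 and PRR5-ARHGAP8, between 430062 and 551816 bp, and PRR5 and PRR5-ARHGAP8 share a start region too. Of these, KBTBD8, an adaptor of a ubiquitin ligase, had the longest mean ATRA peaks, at 1950 and 3067 bp, and HHAT had peaks of 200 bp in both ATRA libraries.

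The 10 gaining promoters with the longest ATRA peaks were of the other kind, and 8 of them lay within 4 kb of a control peak. A gene listed as ENSG00000291315 on chromosome 3 led with H3K27ac peaks of 17162 and 17324 bp in ATRA replicates 1 and 2, and a control peak lay 1337 bp from its TSS. ZBTB7B, a transcription factor gene, had 16215 and 16760 bp, and CXCL8, which encodes the neutrophil chemoattractant interleukin-8, had 13528 and 15062 bp with a control peak 2272 bp away. VEGFB, DEDD, PRKAB1, CFAP73, INKA2 and GNG2 were also among the 10. ZBTB47, a zinc finger gene, had the TSS farthest from control H3K27ac of the 10, with ATRA peaks of 18780 and 4768 bp and a TSS that lay 45410 bp from any control peak, and the TSS of CFAP73 lay 9573 bp from one. INKA2 and CFAP73 differed between replicates, with 20708 against 1020 bp and 16365 against 6749 bp.

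Promoters just inside and just outside the rule had nearly equal values. CLK3 was included with 3 bp of H3K27ac in its window in ATRA replicate 2, KIT with 9 bp in the same library and PLPPR2 with 16 bp in replicate 1. MAP3K3, IRF1 and DNAJB6 were included with a control peak 1002, 1003 and 1005 bp from the TSS. MBNL2, PCNA and CCDC87 were outside it because 12, 13 and 22 bp of a control replicate 2 peak lay in their windows. MIEF1, CKAP4 and PLA2G15 were outside it because the peak of one ATRA library stopped 1010, 1014 and 1037 bp from the TSS.

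To describe the functions among the gaining promoters, 28 lists of genes of granulocyte biology and of cell maintenance were counted against the 4.2% of all promoters that gained. Of 718 listed genes with H3K4me3 in all 4 libraries, 37 gained H3K27ac (5.15%), in 14 of the lists. The shares stood highest among interferon-stimulated genes, with 7 of 34 (20.6%), retinoid signaling, with 4 of 20 (20.0%), and the NADPH oxidase, with 1 of 5. These counts depended on the peaks used. With equal numbers of H3K27ac peaks per library, none of the 7 interferon-stimulated genes and 2 of the 4 retinoid genes, CD38 and DHRS3, still gained, and IFIT3 entered. With a −log10 q of at least 5 for both marks, none of the 11 did, and ADAR entered. Among the 14 lists with no gaining promoter was oxidative phosphorylation, which had H3K27ac in every library at 34 of 38 genes.

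**Figure D3:**
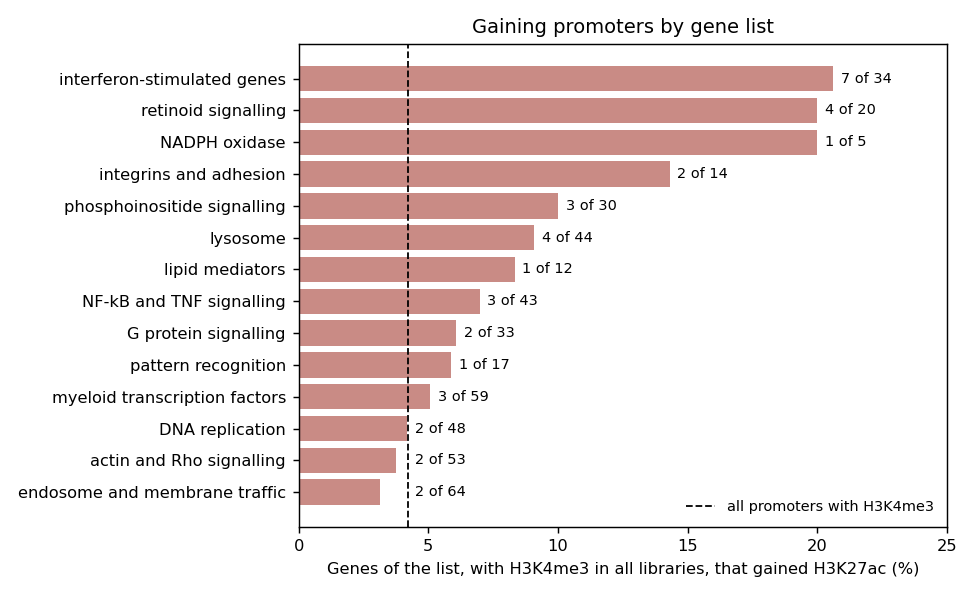
Share of the genes of each list that gained H3K27ac (x axis, percent of the genes with H3K4me3 in all libraries), for the 14 lists with at least 1 gaining promoter (y axis), each labelled with its counts. The dashed line is the 4.2% of all 10840 promoters, and most lists rest on 1 to 4 genes.

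The 7 interferon-stimulated genes were ISG15, a ubiquitin-like modifier, IFIT5, which binds viral RNA, RIGI, a cytosolic RNA sensor, IRF7, a transcription factor of the interferon response, TRIM5, a restriction factor, HERC6, an E3 ligase, and IFI35. ISG15 had 879 bp of H3K27ac in its window in ATRA replicate 1 and 1194 bp in replicate 2, and the nearest control peak lay 54355 bp away. IFIT5 had 322 and 964 bp, and its neighbor LIPA, which encodes lysosomal acid lipase, shares these peaks. RIGI had 617 and 762 bp, HERC6 842 and 1292 bp, and IRF7 806 and 495 bp, with control peaks between 23980 and 94130 bp away. TRIM5 had 1162 and 1439 bp and IFI35 214 and 605 bp, with control peaks 4108 and 4905 bp away. At none of the 7 did an ATRA peak over the window touch a control peak. The response element shown above was present in 4 of them, and in 18 of all 34 listed genes with H3K4me3.

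The retinoid genes were CD38, RARG, DHRS3 and RDH11. CD38, an ectoenzyme on the surface of maturing myeloid cells, had H3K27ac over its whole window in both ATRA libraries, from peaks of 5255 bp in replicate 1 and 14028 bp in replicate 2, and the nearest control peak was 5078 bp away. DHRS3, which reduces retinaldehyde to retinol, had 2001 and 1089 bp in the window, and the nearest control peak lay 8445 bp away. RARG, the gene of the gamma retinoic acid receptor, had 821 and 1790 bp, and RDH11, a retinol dehydrogenase, had 571 and 404 bp. Retinoic acid receptors are known to bind a direct repeat of AGGTCA with a spacer of 5 bases. These exact letters were in none of the 10840 promoters, so this search cannot set the gaining promoters apart or show where receptors bind. The single AGGTCA was in 49 of the gaining promoters (10.8%) and 1101 of all (10.2%).

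Adhesion and the NADPH oxidase of granulocytes had 3 gaining promoters. ITGAM had H3K27ac over 2001 and 1608 bp of its window in ATRA replicates 1 and 2. ICAM1, an adhesion molecule that binds leukocyte integrins, had 1897 and 2001 bp, and the nearest control peak lay 18038 bp away. CYBA, the p22phox subunit of the NADPH oxidase, had 484 and 1440 bp and was the only one of 5 listed subunits to gain, as the other 4 had H3K27ac in every library. All 6 chemoattractant receptor genes with H3K4me3 also had H3K27ac in every library.

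Signaling and lysosomal genes were spread over several lists. PIK3R5, a regulatory subunit of the phosphoinositide 3-kinase that G protein-coupled receptors activate, had 896 and 2001 bp in ATRA replicates 1 and 2, and PLCB3, a phospholipase C, had 828 and 2001 bp. PIP5K1C, which makes phosphatidylinositol 4,5-bisphosphate, had 289 and 621 bp. GNG2, a G protein gamma subunit, had the whole window covered in both. Among lysosomal genes, CTSD, which encodes cathepsin D, had 2001 and 1155 bp, IDS 682 and 1998 bp, LIPA 322 and 964 bp, and FUCA1 87 bp in replicate 1 against 2001 bp in replicate 2. PTGS1, the gene of cyclooxygenase 1, had 925 and 2001 bp.

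Of 59 myeloid transcription factor genes with H3K4me3, 3 gained H3K27ac (5.08%), close to the 4.2% of all promoters. IRF1 had 1263 and 1221 bp in ATRA replicates 1 and 2, KLF2 639 and 682 bp, and PRDM1 636 and 2001 bp. Another TSS of IRF1 and of PRDM1 had H3K27ac in control cells. Among the listed genes this was also true of GNG2, PTGS1, IKBKE, WAS, POLD3 and RFC4, and it was true of 137 of all gaining promoters. At the other 318 no TSS with H3K4me3 had H3K27ac in a control library. In NF-kB and TNF signaling, IKBKE, CYLD and TRADD gained, and TRAF6 did in pattern recognition. WAS and PAK1, both of actin control, STX7 and VPS41 of membrane traffic, POLD3 and RFC4 of DNA replication, and GNG10 completed the listed genes.

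The gaining promoters were compared with all 10840 promoters, themselves included, for properties that the rule did not use. In the 300 bases around the TSS, their ratio of observed to expected CpG had a median of 0.747, against 0.847 for all 10840 promoters. The share of CpG-rich promoters, with a ratio of at least 0.6 and a GC content of at least 50%, was 66.2% against 81.5%. Another protein-coding gene started on the opposite strand within 1 kb at 86 of them (18.9%) and at 2495 of all (23.0%). The GC box GGGCGG was in 63.5% of the gaining and 69.8% of all promoters, but in 72.3% of the 318 gaining promoters with no other TSS acetylated in control cells, so the direction of this difference turned. The NRF1 element GCATGCGC was in 3.74% of the gaining (4.4% of the 318) and 6.07% of all promoters, and the E-box CACGTG in 7.91% (9.43%) and 10.5%. The TATA box TATAAA, at 5.49% in both, CCAAT, at 34.5% and 36.6%, and the AP-1 element TGACTCA, at 2.64% and 2.47%, were at nearly the same shares. These shares are descriptions over promoters of which 96 share a locus with another gaining promoter. The gaining promoters were read at a TSS that met the rule. Most other genes were read at the TSS with the most transcripts among all those with H3K4me3. How much of the CpG and motif differences comes from this choice was not tested. By chromosome, the gaining share ran from 0.524% on chromosome 13 (1 of 191) to 6.91% on chromosome 16 (36 of 521).

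The surroundings of the gaining promoters also held more H3K27ac after ATRA. Within 50 kb of the TSS and outside the window, H3K27ac peaks covered medians of 5800 and 6960 bp in ATRA replicates 1 and 2 and of 1431 and 3026 bp in the control replicates. Both ATRA libraries were above both control libraries at 307 gaining promoters (67.5%), against 43.8% of all promoters. This is the same contrast as the rule, and the peaks that reached the window run on into these flanks, so no test was made.

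The rule asks for an H3K4me3 peak in every library but not for one of constant length, and the length of H3K4me3 was compared between ATRA and control cells. H3K4me3 peaks within 5 kb of the TSS covered medians of 5211 and 5117 bp at the gaining promoters in ATRA replicates 1 and 2, and of 4669 and 3733 bp in control replicates 1 and 2. Over all promoters the medians were 5697 and 5687 bp in ATRA and 5372 and 4636 bp in control cells, so control replicate 2 was lowest in both sets. Per promoter, the change from control to ATRA on the scale of log2(bp + 100) had a median of 0.23 at the gaining promoters, with quartiles of 0.09 and 0.46, and of 0.16 over all promoters. Without control replicate 2 these medians were 0.11 and 0.06, and without control replicate 1 they were 0.37 and 0.26. With all 4 libraries the median was 0.14 where H3K27ac was in every library, 0.26 where it was in none and 0.01 at the 68 losing promoters. The median of the gaining promoters, with 2 libraries against 2, had an exact two-sided permutation p of 0.33, the smallest such a design can give.

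No single promoter passed the test of H3K4me3 length, which could find only large changes. In simulated data with 200 changed promoters, the test recovered 0% at a log2 change of 0.5, 11.5% at 1.0 and 71.0% at 2.0. The simulated noise was drawn separately for each promoter and library and held no shift shared by a whole library. These shares therefore need not hold for the real libraries. By limma with Benjamini-Hochberg adjustment over the 10840 promoters, 0 had an adjusted p under 0.05 (0%), in either direction, and at an unadjusted p under 0.05 there were 1311 longer and 74 shorter in ATRA cells. Of the gaining promoters 88 were longer (19.3%, against 12.1% of all) and 1 was shorter at that unadjusted threshold. Both ATRA libraries were above both control libraries at 221 gaining promoters (48.6%), against 42% of all promoters, and below both at 17 (3.74%), against 4.45%. With the median of each library subtracted, the median change at the gaining promoters was 0.05 and that over all promoters −0.03, and GNG2 and SLCO5A1 were the gaining promoters that passed the threshold, GNG2 with an adjusted p of 0.043.

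**Figure D4:**
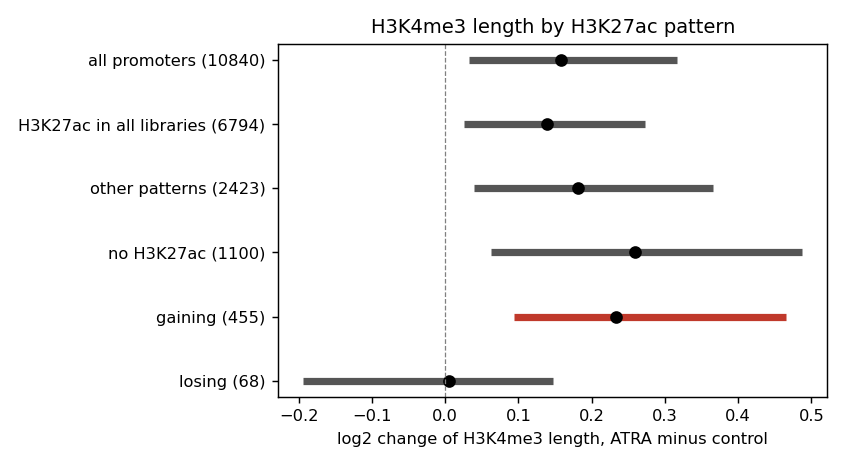
Median (dot) and quartiles (bar) of the log2 change of H3K4me3 length within 5 kb of the TSS, ATRA minus control (x axis), by pattern of H3K27ac (y axis, number of promoters in brackets). The gaining promoters have a median of 0.23, between those with H3K27ac in every library and those with none, and all ranges but that of the losing promoters lie above 0.

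The 5 gaining promoters with the largest change held some of the genes named above. CD38 had 4547 and 8115 bp of H3K4me3 in ATRA replicates 1 and 2 and 1409 and 1022 bp in control replicates 1 and 2, a log2 change of 2.25 ± 0.35 (SE, n = 2 libraries a group, limma adjusted p = 0.37). With a window of 500 bp each side, CD38 did not meet the rule, because not every library had an H3K4me3 peak that close to its TSS. ITGAM had 4818 and 3013 bp in ATRA cells and 1004 and 534 bp in control cells, a log2 change of 2.23 ± 0.43. IFI35 had 4401 and 2439 bp against 785 and 491 bp, a log2 change of 2.22 ± 0.44. In each of these genes both ATRA libraries were above both control libraries. GNG2 had 9420 and 9318 bp against 2062 and 2301 bp, a log2 change of 2.06 ± 0.14 with the lowest adjusted p of the gaining promoters, 0.24. GNG2 met the rule under 4 of the 10 other settings of window, TSS, overlap and peaks, and another of its TSS had H3K27ac in control cells. ZBTB47 had 9186 and 8943 bp against 3784 and 2169 bp, a log2 change of 1.63 ± 0.28. For IFI35 the direction was lost with a stricter set of peaks, those with a −log10 q of at least 5, at which its log2 change was −0.52. With these peaks the log2 change was 4.27 for GNG2, 3.96 for ITGAM, 3.88 for ZBTB47 and 2.25 for CD38.

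Further listed genes had longer H3K4me3 in both ATRA libraries than in both control libraries, which was so for 21 of the 37 (56.8%), against 42% of all promoters, and none of them passed the limma threshold. DHRS3 had 6563 and 5666 bp against 2492 and 1770 bp, and ICAM1 had 6522 and 4801 bp against 2182 and 1882 bp. CTSD had 6586 and 6825 bp against 4105 and 3057 bp, and PRDM1 had 6082 and 5642 bp against 2811 and 2291 bp. H3K4me3 at these promoters was already present in control cells and covered a wider stretch in ATRA cells. CXCL8 was of the same kind outside the lists, with 4621 and 4146 bp against 2240 and 2509 bp.

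In other genes the libraries of both groups overlapped. PLCB3 had 10001 and 9110 bp of H3K4me3 in ATRA replicates 1 and 2 and 9881 and 9319 bp in control replicates 1 and 2, so nearly the whole stretch of 10001 bp was marked in each. RARG had 6811 and 5164 bp against 7307 and 4113 bp, and HERC6 had 2192 and 2156 bp against 2257 and 1905 bp. Apart from IFI35, the interferon-stimulated genes had log2 changes between 0.04 and 0.55, and ISG15 had 4271 and 4080 bp against 3827 and 3597 bp, with no overlap and a log2 change of 0.17 ± 0.15.

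**Figure D5:**
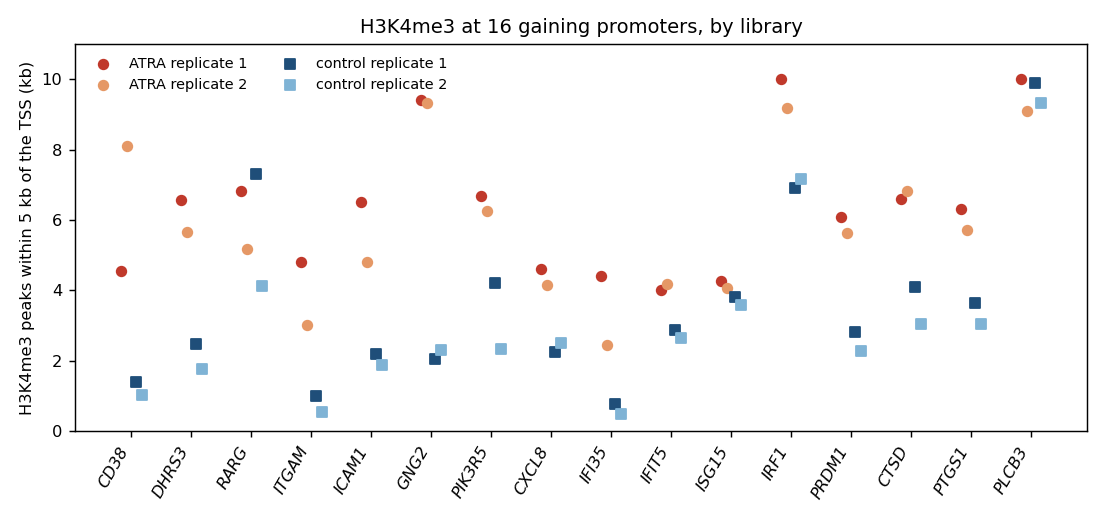
Length of H3K4me3 peaks within 5 kb of the TSS (y axis, kb) in each library for 16 gaining promoters (x axis), ATRA libraries as circles and control libraries as squares. At CD38, ITGAM, ICAM1 and GNG2 both ATRA libraries lie far above both control libraries, while at RARG and PLCB3 the groups overlap.

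The 5 gaining promoters with the lowest change had shorter H3K4me3 in ATRA cells on average. WDR90, which encodes a protein of centrioles, had 4648 and 4106 bp in ATRA cells against 7789 and 5840 bp in control cells, a log2 change of −0.62 ± 0.19. The change was −0.05 when whole peak lengths were compared, −1.29 within 2 kb and −5.66 with peaks of a −log10 q of at least 5. WDR90 met the rule under 0 of the 10 other settings of window, TSS, overlap and peaks, so it is a borderline member. ABCC10, a transporter gene, had 3025 and 3560 bp against 5508 and 3490 bp, so its groups overlapped, with a log2 change of −0.41 ± 0.27. CCDC86, RHPN1 and RNF207 had log2 changes of −0.33, −0.30 and −0.28. None of the 5 passed the limma threshold.

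Few of the gained peaks had a high score from the peak caller, as was the case at other promoters. A peak with a −log10 q of at least 5 lay over 56 gaining promoters (12.3%) in ATRA replicate 1, over 80 (17.6%) in replicate 2 and over 10 (2.2%) in both. At promoters with H3K27ac in every library these shares were 14.7% in replicate 1, 15.8% in replicate 2 and 2.96% in both. In either set, most promoters with a high score in one ATRA replicate lacked it in the other. Requiring that score of H3K27ac peaks in all libraries left 168 gaining promoters, of which 10 were among the 455, so the membership of single genes depended on it.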

How the data were processed

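H3K4me3 and H3K27ac were profiled by ChIP-seq in HL-60 cells with and without ATRA. The authors removed adapters, used Bowtie for the alignment to hg19 and MACS2, in its broad mode, for peaks of each library, and the submitters' processing notes also list cutadapt. Versions are not given in the sources used here. The deposited peak files give coordinates in bp and a −log10 q for each peak. The deposited fold and p columns hold values such measures cannot take and were not used.

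TSS came from protein-coding transcripts of protein-coding genes in GENCODE release 44 mapped to GRCh37. A gene gained or lost H3K27ac when any of its TSS met the rule or its mirror, and in the main counts a gene that did both counted as gaining. Values are given for 1 such TSS a gene, the one with the most transcripts. Genes with the other patterns were read at the TSS with the most transcripts among all those with H3K4me3 in all 4 libraries. The TSS of gaining and losing genes were thus picked from a narrower set. An overlap of 1 bp sufficed. Peak lengths given for a promoter are summed over all peaks of the library that touch its window. H3K4me3 length within 5 kb was tested on log2(bp + 100) with limma 3.58.1 in R 4.3.3 across 10840 promoters, with no block for the replicate number, and p-values measure only the spread between these libraries. Counting and fits were tested on simulated data. Python 3.11.15, numpy 2.4.6, pandas 2.3.3, scipy 1.17.1 and matplotlib 3.10.9 were used.

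Named genes were the 10 gaining promoters with the longest ATRA peaks, the 10 farthest from control peaks, the 5 at each end of the H3K4me3 change, those at the edges of the rule and every member of a list. The promoters, lists and tests were chosen with earlier results of these data known, and the interferon element was added after the data were seen. Alternatives were the TSS set, the window, the overlap, the peak score, peak number and length, other TSS, a margin of 5 kb, the pseudocount, centring, the replicate block and each library left out. Afterwards, the origin of the gained peak, 1 promoter a locus and the interferon and retinoid counts under each setting were added. Intervals from read counts could not be given, as depth is unknown.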

Additional observations from a re-analysis of the deposited data

How the results depend on the processing

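The number of gaining promoters, 455, stayed within 1.5 times under other windows, 200 bp of overlap, peaks of at least 1 kb and the 5′ end of each gene record. The members changed more than the number. Peaks of at least 1 kb gave 630 promoters but kept 185 of the 455, and the window of 500 bp gave 540 and kept 345. The window of 2 kb kept 342 of the 455, the overlap 414 and the gene record 302. No acetylated other TSS (318) and ATRA peaks that touch no control peak (322) stayed within 1.5 times too, but both only pick from the 455. The number was 129 with a −log10 q of at least 5 for both marks, 168 with it for H3K27ac alone, 261 with equal numbers of H3K27ac peaks and 266 with no control peak within 5 kb. With each library left out it ran from 455 to 1338, and a rule on fewer libraries can only add promoters. It was 950 without ATRA H3K27ac replicate 1, 801 without control H3K27ac replicate 1 and 1338 without control H3K27ac replicate 2. The 68 losing promoters became 38 with the 5′ end of the gene record, 119 with the score for H3K27ac, 480 with equal peak numbers, 35 with no acetylated other TSS and 33 with no ATRA peak within 5 kb, and ran from 68 to 296 with each library left out, above 1.5 times for each of the 4 H3K27ac libraries. The 68, the 35 and the counts with a library left out exclude genes that also gained at another TSS, and the other losing counts do not. Within replicate numbers, as a replicate block, the mean counts were 1414 gaining and 371.5 losing, from 1515 and 305 in number 1 and 1312 and 438 in number 2. For each mark, the peak names carry a tag that is shared by the ATRA and the control library with the same number and whose meaning is not stated, and the labels do not say that the numbers pair the libraries.

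The count of gaining promoters called for H3K4me3 length, 0, was 1 within 2 kb (GLI4) and 2 with library medians subtracted, and 0 otherwise, with the replicate block as well. Their median log2 change stayed above 0, from 0.05 with library medians subtracted to 0.26 with peak length, and from 0.11 (without control replicate 2) to 0.37 (without control replicate 1) with a library left out. Both ATRA libraries were longer at 141 in place of 221 gaining promoters within 2 kb. ABCC10 changed sign within 2 kb (0.016) and IFI35 at a −log10 q of at least 5 (−0.52). The share with a GC box was 72.3% in place of 63.5% where no other TSS was acetylated, above and not below the 69.8% of all promoters. The cause of these differences was not tested. ATRA and control H3K4me3 libraries of the same number deviated together weakly (Pearson r = 0.15 over 10840 promoters), with only 2 pairs.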
